A study of Homo sapiens with 5 samples.

Results

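Peaks of the histone demethylase LSD1 in LNCaP cells that also carry phosphorylated threonine 6 of histone H3 (H3T6ph), and that have no LSD1 peak at the same place in VCaP cells, are described here. They were chosen by peak calls alone: an LNCaP LSD1 peak on chromosomes 1 to 22 or X had to share at least 1 base with an LNCaP H3T6ph peak and no base with a VCaP LSD1 peak. That rule selected 337 of 11654 LNCaP LSD1 peaks, or 2.892% (95% Wilson interval 2.603 to 3.212), and they are called the dual sites. The presence of each peak, its width and its score were used by the rule or come from the same calls, so they are given as a description and without a test.

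The series holds 5 samples, 1 for each group. Chromatin immunoprecipitation gave 1 peak list for LSD1 in LNCaP, 1 for H3T6ph in LNCaP and 1 for LSD1 in VCaP, all from untransfected cells. RNA-seq gave 1 LNCaP library transfected with a control siRNA and 1 transfected with an siRNA against LSD1. LNCaP and VCaP are established human prostate cancer lines that express the androgen receptor, and both were at passage 14-17. All 5 samples share a period of 3 days in phenol-red-free medium with charcoal-stripped serum, which removes steroids, and the labels mention a later hormone stimulus without naming a hormone or saying which samples received it. With 1 sample a group no difference has a replicate check, and every interval covers counting error only.

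LSD1, encoded by KDM1A, removes methyl groups from histone H3 and works in the CoREST and NuRD complexes, which repress genes. It has also been described as a coactivator of the androgen receptor. Phosphorylation of H3 at threonine 6 by protein kinase C beta is known to keep LSD1 from removing the neighbouring methyl marks of lysine 4, so sites that carry both are of interest in prostate cells.

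KDM1A, the target of the siRNA, stood at 37.0 FPKM in the control library and at 6.87 FPKM in the LSD1 siRNA library, 18.6% of the control level. FPKM counts fragments per kilobase of transcript and per fixed number of mapped fragments. The luminal genes that define LNCaP were high in the control library, with KLK3 at 2470 FPKM, KRT8 at 929 FPKM and KRT18 at 620 FPKM. The basal markers KRT5 (0.0577 FPKM) and TP63 (0.0138 FPKM) and the neuroendocrine marker CHGA (0.0329 FPKM) were near 0, while ENO2, also counted as neuroendocrine, was at 187 FPKM. No RNA was measured in VCaP, and the depth of the peak lists is not known.

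Of the dual sites, 7 lay over the annotated start of a protein-coding gene whose strand was known. The sequence before the start is shown for 4 of them, chosen because the gene had an interval of its own and nearly the same length in both builds, and 1 direction was kept where a pair of genes shared the region. The 250 bases before the start are from RefSeq, assembly GRCh38.p14, matched by symbol and written 5′ to 3′ on the gene's strand, while the peak positions are hg19. Capitals mark matches to 8 short motifs, searched on both strands. The letters were TGTTCT for a half-site of the androgen receptor, TGTTTAC for forkhead factors, TGACTCA for the AP-1 factors, GGAATTTCC for one form of the NF-kB site, GGGCGG for the GC box of Sp factors, CCAAT for the box named after it, TATAAA for the TATA box and CCGGAAG for ETS factors; none of these words overlap in the windows shown.
CXCL8, chr4:73740319-73740568, plus strand: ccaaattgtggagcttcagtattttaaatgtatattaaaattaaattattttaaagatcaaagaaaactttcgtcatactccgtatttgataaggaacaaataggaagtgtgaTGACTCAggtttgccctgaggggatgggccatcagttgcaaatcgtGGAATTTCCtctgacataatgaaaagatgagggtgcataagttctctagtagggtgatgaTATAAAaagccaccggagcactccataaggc
HSPA13, chr21:14383147-14383396, minus strand: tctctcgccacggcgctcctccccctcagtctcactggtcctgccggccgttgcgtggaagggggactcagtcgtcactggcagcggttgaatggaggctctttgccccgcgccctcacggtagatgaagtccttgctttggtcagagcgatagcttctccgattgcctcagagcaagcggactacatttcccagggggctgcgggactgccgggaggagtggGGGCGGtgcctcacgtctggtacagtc
DDX19A, chr16:70346653-70346902, plus strand: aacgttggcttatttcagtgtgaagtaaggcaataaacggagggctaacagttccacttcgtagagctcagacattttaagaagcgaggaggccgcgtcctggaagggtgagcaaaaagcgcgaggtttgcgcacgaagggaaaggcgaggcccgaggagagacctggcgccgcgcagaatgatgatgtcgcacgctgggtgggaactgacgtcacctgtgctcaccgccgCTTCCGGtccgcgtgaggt
FTO, chr16:53703906-53704155, plus strand: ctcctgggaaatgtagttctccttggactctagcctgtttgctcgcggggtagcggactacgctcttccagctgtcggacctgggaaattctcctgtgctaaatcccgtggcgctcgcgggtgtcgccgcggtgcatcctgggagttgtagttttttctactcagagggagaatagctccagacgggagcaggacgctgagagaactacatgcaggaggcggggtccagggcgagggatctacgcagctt

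CXCL8, which encodes the chemokine interleukin-8, is AT-rich before its start, with 37.6% GC and 4 CpG against medians of 58% and 11 over 27305 RefSeq promoters. Its window held an AP-1 match beginning at position -137, an NF-kB match at -91 and a TATA box at -31, with the last base before the start as -1. Over the same promoters these letters occurred in 4.16%, 0.428% and 11.1% of windows. In hg19 the LSD1 peak reached from 242 bases before the CXCL8 start to 425 bases into the gene, and the H3T6ph peak from 95 bases before it to 250 bases into it. CXCL8 spans 3211 bases in hg19 and 3148 in GRCh38, so its start may differ between the builds. Which of these letters the H3T6ph peak covered was therefore not determined.

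The other 3 windows were richer in GC, at 63.6% for HSPA13, 57.6% for DDX19A and 58.4% for FTO. HSPA13, a member of the HSP70 family, held a GC box at -27, found in 42.3% of all windows. DDX19A, an RNA helicase of messenger RNA export, held an ETS match on the opposite strand at -19, found in 8.82%. FTO, an RNA demethylase, held none of the 8 motifs, and its window overlaps that of RPGRIP1L, a ciliary gene that runs the other way and whose start the same LSD1 peak covered. No window shown held the androgen receptor half-site, which 12.4% of all windows held, or the forkhead letters, which 2.98% held. A match is a description of the letters and not a measured binding site.

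The H3T6ph peak at a dual site was usually a smaller peak sitting within the LSD1 peak. Each of the 337 dual sites met exactly 1 H3T6ph peak, and each H3T6ph peak was met once. The median width was 812 bases for the LSD1 peak (lowest 368, highest 2627) and 492 bases for the H3T6ph peak (226 to 2537). The LSD1 peak was the wider of the pair at 310 sites (91.99%), and the H3T6ph peak lay wholly inside it at 212 (62.91%).

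The centres of the 2 peaks lay a median of 83.5 bases apart, with quartiles of 38.5 and 160.5 and a largest distance of 758.5 bases. At 192 sites (56.97%) they were within 100 bases of each other, and at 285 (84.57%) within 200 bases. The smallest overlaps with H3T6ph were 14, 20 and 87 bases, against a median of 468. If the overlap had to cover at least 50% of each peak, 238 of the 337 sites would remain. Just outside the rule, the nearest LNCaP LSD1 peaks without VCaP LSD1 missed an H3T6ph peak by 6, 22 and 24 bases.

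**Figure D1:**
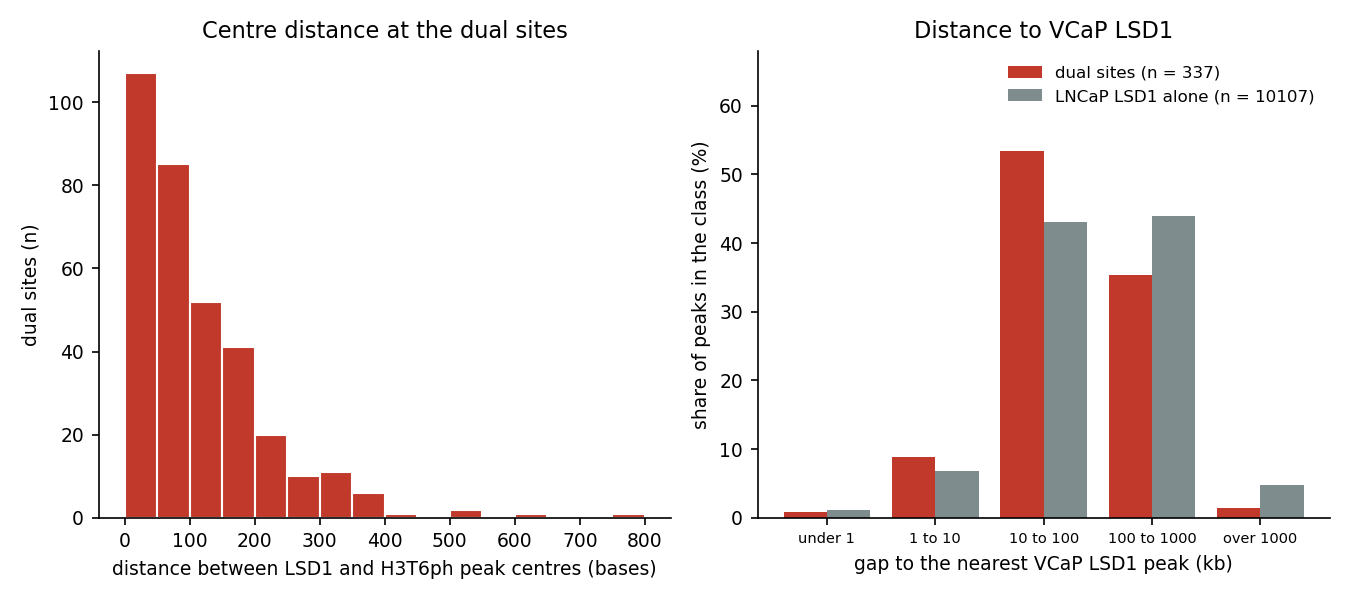
Left, histogram of the distance in bases between the centres of the LSD1 and H3T6ph peaks at the 337 dual sites, 50 bases a bar. Right, share of peaks by the gap in kb to the nearest VCaP LSD1 peak, for the dual sites (red) and for the 10107 LNCaP LSD1 peaks that meet neither other list (grey). Most centres lie within 200 bases, and 53.4% of the dual sites have a gap of 10 to 100 kb.

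VCaP LSD1 peaks were seldom just beside a dual site, or beside an LNCaP LSD1 peak that met neither other list. The median gap to the nearest one was 65.72 kb, with quartiles of 23.77 and 154.8 kb, and it was at most 10 kb at 33 sites (9.792%) and at most 100 kb at 213 (63.2%). The 3 sites closest to being left out were inside MICAL2 (gap of 71 bases), FAM174B (260 bases) and LMAN1L (826 bases). Just on the other side, the smallest overlaps that removed a peak were 129, 140 and 148 bases. LNCaP LSD1 peaks with neither H3T6ph nor VCaP LSD1 had a longer median gap of 96.36 kb, with quartiles of 35.5 and 244.4 kb. Of these peaks 8.024% had a gap of at most 10 kb.

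The 3 dual sites farthest from any VCaP LSD1 peak were on chromosome 6. The site inside GMDS (chr6:1832584-1833620), the enzyme that starts GDP-fucose synthesis, was 9.14 Mb from one, within the first 11.0 Mb of the chromosome. That stretch had no VCaP LSD1 peak, 43 LNCaP LSD1 peaks and 11 H3T6ph peaks. A pair of sites at TPD52L1, a tumour protein D52 family gene, were 5.96 and 5.92 Mb from VCaP LSD1, one of them 802 bases past the gene's start. They lay in a second stretch of 12.1 Mb without VCaP LSD1, where LNCaP had 43 LSD1 peaks, 6 H3T6ph peaks and 3 dual sites in all, the last nearest to MAN1A1. Copy number was not measured in either line.

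Scores, which the authors gave each peak and whose scale is not stated, were used to rank peaks within a list. The median LSD1 score of the dual sites was 71.39, at the 59.14th percentile of LNCaP LSD1 peaks. It was 65.73 (48.23) for the 10107 LNCaP LSD1 peaks that meet neither other list, 73.3 (62.3) for the 877 in both lines without H3T6ph, and 82.69 (74.09) for the 333 in all 3 lists. The dual sites thus ranked between the LSD1 peaks alone and those in all 3 lists. Of the 337, 111 (32.94%) were above the 75th percentile of LSD1 scores.

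The H3T6ph peaks showed a similar order. Those at dual sites had a median score of 63.14, at the 55.89th percentile, against 79.23 (77.3) for the 330 H3T6ph peaks with LSD1 of both lines. H3T6ph peaks that met VCaP LSD1 but no LNCaP LSD1 stood at 72.65 (71.29), and the 2957 that met no LSD1 stood at 57.92 (41.49). Of the H3T6ph peaks at dual sites 90 (26.71%) were above the 75th percentile of their list, against 44.4% of those with VCaP LSD1 alone.

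The 2 scores of a site showed little relation. Both were above the 75th percentile of their lists at 29 sites, LSD1 alone at 82, H3T6ph alone at 61 and neither at 165. Pearson's r of the 2 percentiles was -0.048 over the 337 sites, which share 1 library for each mark.

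**Figure D2:**
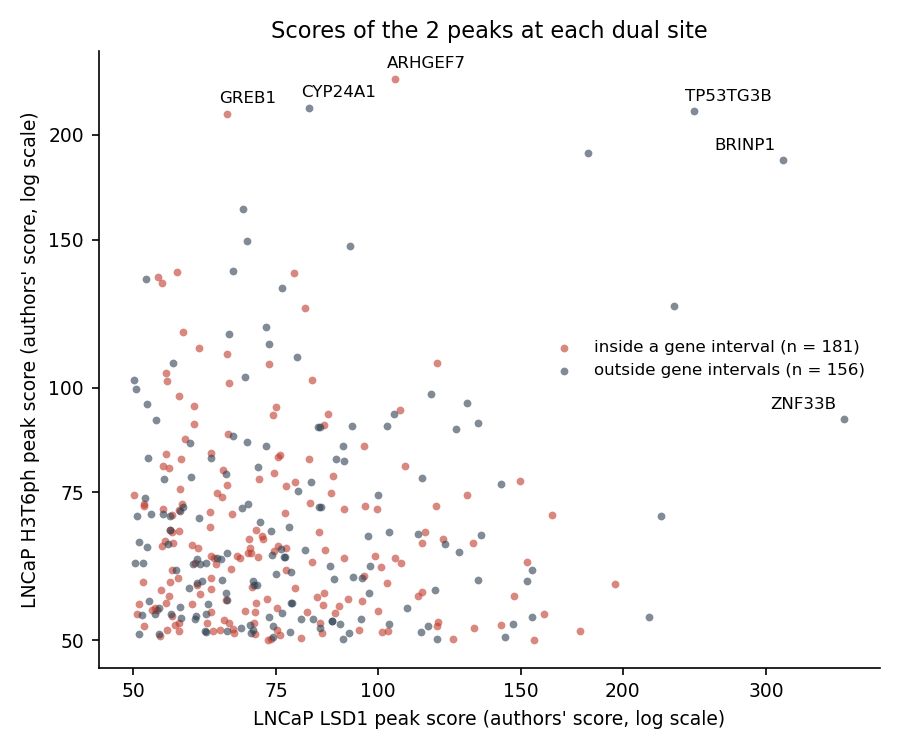
Each point is 1 of the 337 dual sites, placed by the authors' LSD1 peak score (x axis, log scale) and the authors' H3T6ph peak score (y axis, log scale), in red where it lies inside a gene interval. The points form no rising band; of the 4 highest H3T6ph scores, the site nearest TP53TG3B is also high for LSD1 (244.39), and those at ARHGEF7, CYP24A1 and GREB1 have LSD1 scores of 105.05, 82.25 and 65.22.

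The highest LSD1 scores lay mostly far from protein-coding genes. The first was at chr10:42383123-42385749 (LSD1 374.56, H3T6ph 91.73), 699 kb from the nearest protein-coding gene, ZNF33B, and belonged to the only group of 3 dual sites within 100 kb of each other. Next were sites 499 kb from BRINP1 (LSD1 315.24, H3T6ph 186.52) and 758 kb from TP53TG3B (244.39 and 213.53). Of the 10 highest, 7 were outside gene intervals and over 100 kb from a protein-coding gene. The 3 inside genes were at BCAS3 (195.7), ARSG (177.1) and YTHDF2 (163.84), a reader of methylated adenosine in RNA. The first site was 1 of 3 within 2 Mb of the widest stretch of their chromosome that holds no peak and no gene. On most chromosomes that stretch holds the centromere. Over all 337 dual sites, 53.71% were inside a gene interval and 19.29% over 100 kb from a protein-coding gene. Near that stretch lay 4.748% of them. The 10 highest of the other classes were not compared.

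Of the 10 highest H3T6ph scores, 4 were over 100 kb from a protein-coding gene, against 7 of the 10 highest LSD1 scores and 19.29% of all dual sites. The first was inside ARHGEF7 (chr13:111899918-111900483, H3T6ph 233.26, LSD1 105.05), a guanine nucleotide exchange factor of the cytoskeleton. The second was 3.82 kb from CYP24A1 (chr20:52765118-52766163, H3T6ph 215.4, LSD1 82.25), the vitamin D 24-hydroxylase, whose own level was only 0.0951 FPKM in the control library. The fourth was inside GREB1 (chr2:11679329-11680265, H3T6ph 211.97, LSD1 65.22), a steroid-responsive cofactor at 19.5 FPKM in the control library and 16.4 FPKM after LSD1 siRNA. The third was the site 758 kb from TP53TG3B, and it, the site 148 kb from CNTNAP3B and that 499 kb from BRINP1 were among the 10 highest for both marks. The site 758 kb from TP53TG3B and another of these 10, 50.2 kb from RET, were within 2 Mb of the widest empty stretch of their chromosomes.

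The share of dual sites inside genes was near that of all LNCaP LSD1 peaks, 51.95% (51.04 to 52.85). A gene interval is the span the authors' expression table gives a gene, and 181 of the 337 (53.71%, 48.37 to 58.96) touched one. The share was 51.58% (50.6 to 52.55) for the LSD1 peaks alone, 59.29% (56.01 to 62.5) for those in both lines without H3T6ph and 42.04% (36.86 to 47.41) for those in all 3 lists. The intervals of the dual sites and of the sites in all 3 lists did not overlap. Over 100 kb from any protein-coding gene lay 65 dual sites (19.29%), near the 19.06% of all LNCaP LSD1 peaks.

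At gene ends, too, the dual sites were near all LNCaP LSD1 peaks, of which 9.542% (9.022 to 10.09) came within 1 kb. There were 24 dual sites (7.122%, 4.832 to 10.38) within 1 kb of where a gene interval begins or ends. The share was 8.108% (5.632 to 11.54) for sites in all 3 lists and 8.123% (7.606 to 8.672) for LSD1 peaks alone. LSD1 peaks in both lines without H3T6ph stood apart at 27.37% (24.52 to 30.41). Within 2 Mb of the widest empty stretch lay 16 dual sites (4.748%, 2.943 to 7.572), between the LSD1 peaks alone (2.088%, 1.827 to 2.385) and those in all 3 lists (9.309%, 6.636 to 12.91). Over all LNCaP LSD1 peaks that share was 2.48% (2.213 to 2.778).

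**Figure D3:**
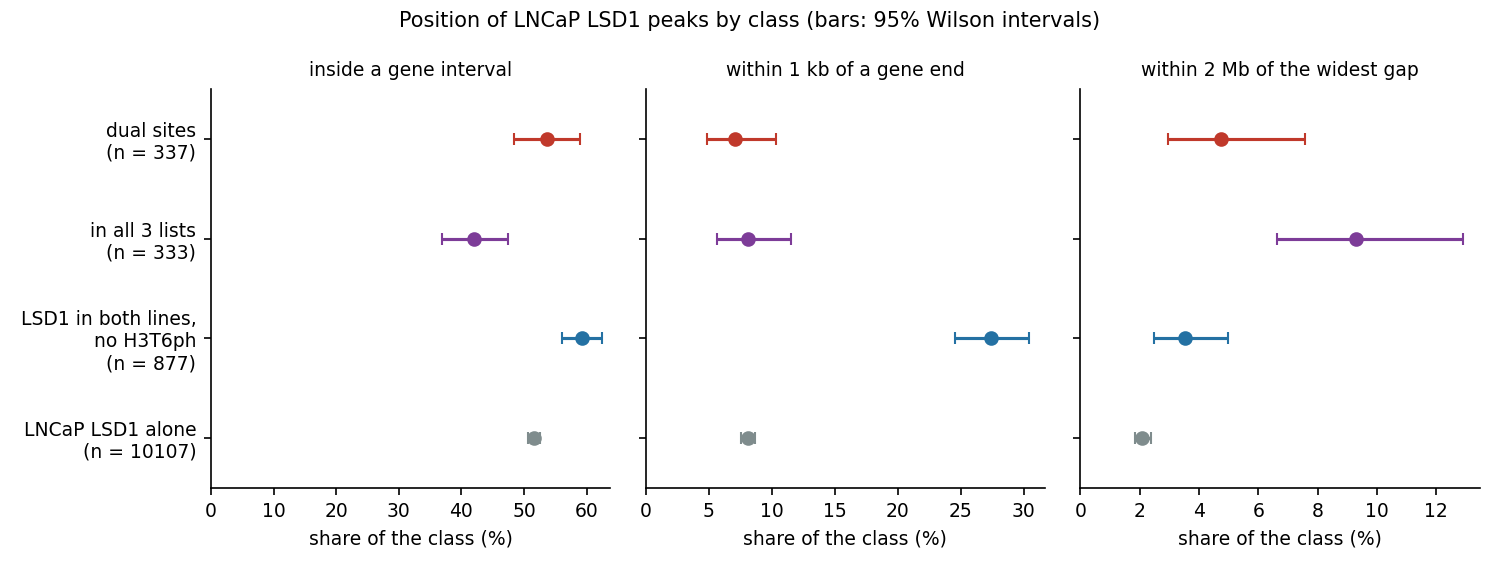
Share of LNCaP LSD1 peaks (x axis, percent) in 4 classes (rows) that touch a gene interval, come within 1 kb of a gene end, or lie within 2 Mb of the widest stretch of a chromosome without peaks or genes. Points are shares and bars 95% Wilson intervals; the dual sites have 53.71%, 7.122% and 4.748%.

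Where strand was known, 17 of the 24 sites at gene ends were within 1 kb of a start and 6 within 1 kb of the finish of a gene, and a site could count for both. The highest LSD1 score among them was 409 bases past the finish of SNRNP40 (132.6), a spliceosome protein. Sites over a start or before it included those at FTO, ANXA9, RAB11B, CXCL8, HSPA13, DDX19A, GSTP1 (485 bases before the start, LSD1 66.23, H3T6ph 87.65) and FEM1A (79 bases, 58.71 and 85.93). The genes with such a site at their start ranged from ZBTB7B, a zinc finger repressor listed at 0 FPKM in both libraries, to RAB11B, a vesicle GTPase at 79.3 FPKM in the control library. GSTP1, a detoxifying enzyme, was at 1.00 and 1.72 FPKM, close to the lowest level compared.

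Across chromosomes the share of LNCaP LSD1 peaks that were dual sites ran from 1.29% on chromosome 18 (4 of 309, 0.505 to 3.28) to 7.14% on chromosome 21 (11 of 154, 4.03 to 12.3). Chromosome 17 had 5.79% (23 of 397, 3.89 to 8.54), and these were the 2 chromosomes whose interval lay above the share over all chromosomes. Both also had many H3T6ph peaks for their LSD1 peaks: 69.5 per 100 on chromosome 21 and 50.4 on chromosome 17, against 27.5 on chromosome 10, which was lowest. They were not alone in this, with 52.7 per 100 on chromosome 8 and 49.1 on chromosome 20. The dual-site shares there were 3.57% (2.32 to 5.45) and 4.43% (2.66 to 7.3). As a share of H3T6ph peaks the dual sites made up 10.3% (5.84 to 17.5) on chromosome 21, 11.5% (7.79 to 16.7) on chromosome 17 and 7.609% over all chromosomes. The part of H3T6ph density in these shares was not tested.

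**Figure D4:**
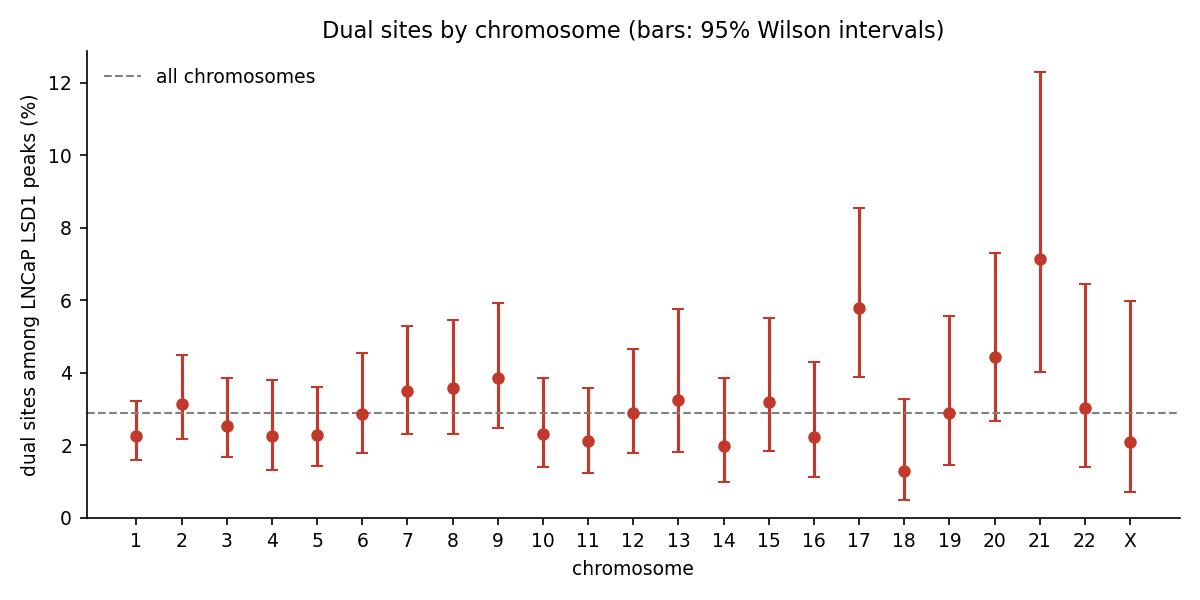
Dual sites as a percentage of LNCaP LSD1 peaks (y axis) on each chromosome (x axis), with 95% Wilson intervals; the dashed line is the share over all chromosomes, 2.892%. Chromosomes 17 and 21 stand above the line and the other intervals include it.

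Most dual sites lay alone. There were 9 groups of dual sites within 100 kb of each other, with 19 sites in all, and no neighbouring pair was within 10 kb. Groups are named by their nearest protein-coding gene, which could be far away. The group of 3 lay 687, 699 and 719 kb from ZNF33B, all within 2 Mb of the widest empty stretch of chromosome 10. Pairs were nearest to ELF3 with GPR37L1, MYO16 (102 and 188 kb), BCAS3 with TBX2, CWH43 (58 and 87.1 kb), GOLPH3, ZNF608, TPD52L1 and EPB41L4B. The CWH43 pair was also within 2 Mb of the widest empty stretch of its chromosome. Within 20 kb, 5 protein-coding genes had 2 dual sites and none had 3: CAMK1D, EPB41L4B, GOLPH3, TPD52L1 and ZNF608. TPD52L1 had 50.2 FPKM in the control library and 50.5 FPKM after LSD1 siRNA. GOLPH3, a Golgi membrane protein with one site 394 bases before its start, was at 60.6 and 51.6 FPKM.

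The siRNA libraries allow a look at the genes near these sites, a measure the rule did not use. A gene was near a dual site when the site lay within 20 kb of its interval, and genes that reached 1 FPKM in at least 1 of the libraries were compared. That gave 221 of 11623 protein-coding genes (1.9%), belonging to 178 of the 337 sites. Long genes are met more easily: 5.26% of genes of 100 kb or more were near a dual site against 0.667% of genes under 20 kb, and the median interval was 105 kb near a site and 33.3 kb over all genes. Expression was similar, with median control levels of 13.8 and 13.2 FPKM. Of the 221 genes, 64 share their interval with another gene, among them ACACA, ARSG, ATP6V0E1, CAMK1D, FOXP1, IGF1R, ITPR1, PFKFB3 and SLC16A6. In bulk RNA, fewer cells making a transcript and less transcript per cell cannot be told apart.

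On the log2(FPKM + 1) scale, which understates the change of low genes, no gene near a dual site reached 2-fold after LSD1 siRNA. None of the 221 was 2-fold higher (0.112% of all protein-coding genes were) and none was 2-fold lower (0.129% were). With a pseudocount of 0.1 FPKM, 1 gene passed 2-fold, SPOCK1, which was lower. At 1.5-fold, 1 gene was higher (0.452%; 1.04% of all genes) and 8 were lower (3.62%, 1.85 to 6.98; 1.17% of all genes). With a pseudocount of 0.1 FPKM the counts were 5 higher and 11 lower. At that pseudocount 1.82% of all genes were lower, and the share of all genes that were higher was not computed. Within 100 kb, on the FPKM + 1 scale, 5 of 500 genes were higher and 10 lower, beside the 1.04% and 1.17% of all genes. Genes near sites in all 3 lists had nearly the same share of lower genes, 7 of 197 or 3.55% (1.73 to 7.15), and genes near LSD1 peaks alone had 1.19% (0.908 to 1.56). The median log2 difference was -0.049 (-0.083 to -0.002) near a dual site and -0.012 over all genes, and 126 of 221 (57.0%) were below 0 against 53.0% of all. No test of the list was made, and with 1 library a condition the spread between cultures is not known.

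**Figure D5:**
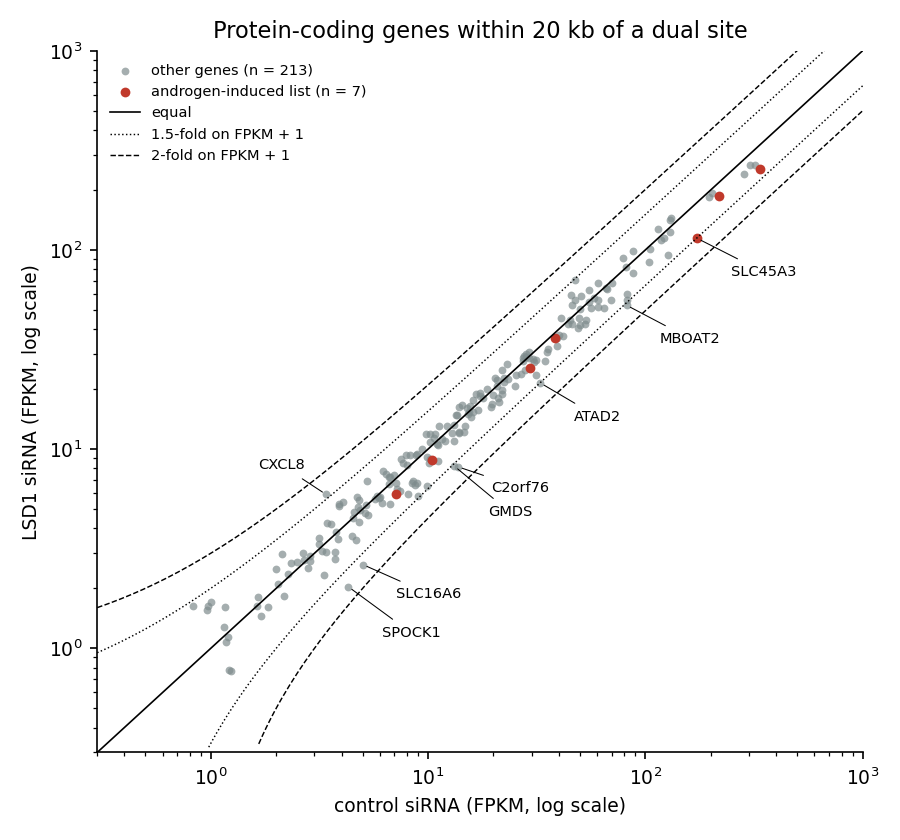
Level of the 221 protein-coding genes within 20 kb of a dual site with control siRNA (x axis, FPKM, log scale) and with LSD1 siRNA (y axis, FPKM, log scale); 1 gene is left out, red points are 7 genes of the androgen-induced list, and dotted and dashed lines mark 1.5-fold and 2-fold on FPKM + 1. On that scale no point lies beyond the 2-fold lines, and 7 of the 8 named genes lie below the diagonal.

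Of the genes lower by 1.5-fold, MBOAT2, a lysophospholipid acyltransferase, was at 82.0 FPKM in the control library and 52.7 FPKM after LSD1 siRNA, a log2 difference of -0.63, with a site inside the gene (chr2:9140959-9142028). GMDS was at 13.2 and 8.20 FPKM (-0.63). ACACA, acetyl-CoA carboxylase, did not reach 1.5-fold, at 82.2 and 55.9 FPKM (-0.55).

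Among the other lower genes, SLC45A3, a prostate transporter known as prostein, was at 173.3 and 114.3 FPKM (-0.60), with a dual site 18.0 kb away. ATAD2, a bromodomain coactivator, was at 32.9 and 21.5 FPKM (-0.59) with a site 8.96 kb away. C2orf76 was at 13.8 and 8.14 FPKM (-0.69). SLC16A6, a monocarboxylate transporter family member, was at 5.02 and 2.63 FPKM (-0.73), and it shares its interval with ARSG, so the site there cannot be assigned to either. SPOCK1, a secreted proteoglycan, was at 4.30 and 2.03 FPKM (-0.81). It was under the level set for naming a gene by its change and was added after its values were seen.

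The largest rise was at CXCL8, whose start is shown in sequence at the beginning, from 3.39 FPKM with control siRNA to 5.93 FPKM with LSD1 siRNA (log2 0.66). ELF3, an epithelial ETS factor with a dual site 1.33 kb past its interval, was next at 47.3 and 70.8 FPKM (0.57). PFKFB3, a regulator of glycolysis, was at 45.6 and 59.7 FPKM (0.38), and SRGAP3, FRMPD1, MICAL2 and ITPR1 had differences of 0.37, 0.34, 0.34 and 0.33. The other genes with a shown promoter were within 1.5-fold: HSPA13 was at 19.7 and 16.9 FPKM, DDX19A at 12.8 and 12.1 FPKM, and FTO at 16.1 and 15.4 FPKM.

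In the authors' deposited table, 3 of the 221 genes had an accession called changed (1.36%, 0.463 to 3.91), against 0.989% of all protein-coding genes. They were SPOCK1 (q = 0.0118), FOXP1 (q = 0.000268) and TNIK (q = 0.00315). FOXP1, a forkhead factor, was at 10.1 and 8.55 FPKM summed over its accessions, and TNIK, a kinase, at 1.66 and 1.80 FPKM, so neither differed by 1.5-fold as a whole gene. In the same authors' deposited table the q-value was 0.342 for SLC45A3 and 0.35 for CXCL8.

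Genes known to be induced by androgen had a dual site nearby in 8 of 70 measured cases (11.4%, 5.91 to 21), against 1.9% of all protein-coding genes. At a distance of 5 kb or 0 kb in place of 20 kb, 4 of the 70 had one. At these distances 162 and 146 of the 11623 protein-coding genes had one. Their intervals were longer than most, with a median of 51.7 kb, and 45 of the 70 had some LNCaP LSD1 peak within 20 kb, as had 4955 of the 11623 protein-coding genes. They included AFF3, IGF1R, KLK2, KLK4, PDE9A, SLC45A3 and ZBTB16. All 8 differences were below 0, with a median of -0.23, and the median of the 70 was -0.34 with 63 below 0. The list was assembled with earlier results of these data known, so its direction is not independent evidence.

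KLK2 and KLK4, secreted serine proteases of the kallikrein cluster, share 1 dual site between them, at chr19:51392570-51393385. Its LSD1 score was 118.08 and its H3T6ph score 106.85, and the nearest VCaP LSD1 peak was 36.6 kb away. The site is 8.75 kb from KLK2, which had 338.5 FPKM in the control library and 254.4 FPKM after LSD1 siRNA (-0.41). It is 16.2 kb from KLK4, which was at 217.4 and 186.8 FPKM (-0.22). KLK2 is close in sequence to KLK3, and how reads that fit both were assigned is not stated, so its level is uncertain.

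AFF3, IGF1R, PDE9A and ZBTB16 carried their dual site inside the gene. AFF3 was at 7.15 and 5.94 FPKM (-0.23), IGF1R, the receptor of insulin-like growth factor 1, at 10.4 and 8.83 FPKM, PDE9A, a cyclic GMP phosphodiesterase, at 29.4 and 25.5 FPKM, and ZBTB16, a zinc finger repressor, at 38.2 and 36.3 FPKM. Of the genes named here from this list, SLC45A3 was past 1.5-fold. Of 29 measured genes known to be repressed by androgen, 2 had a dual site nearby (6.9%, 1.91 to 22). The share of all protein-coding genes was 1.9%, close to the lower limit. An LNCaP LSD1 peak of any class was within 20 kb of 15 of the 29. The median interval was 47.5 kb for this list and 253 kb for the 2 genes. CAMK1D, a calcium-dependent kinase with 2 dual sites, was at 6.40 and 7.48 FPKM (0.20), and OPRK1, the kappa opioid receptor, at 2.66 and 3.02 FPKM (0.13).

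Prostate lineage factors and androgen receptor cofactors had a dual site nearby in 4 of 38 cases (10.5%, 4.17 to 24.1), against 1.9% of all protein-coding genes, and 25 of the 38 (65.8%) had some LNCaP LSD1 peak within 20 kb. They were ELF3, FOXP1, NFIB and NFIC. NFIB and NFIC, nuclear factor I proteins, both had the site inside the gene, and their levels were 8.09 and 5.93 FPKM (-0.39) and 9.40 and 10.1 FPKM (0.09). Long genes are common here too, with a median interval of 103 kb for the list.

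Genes of the LSD1 complexes and of protein kinase C, the enzymes tied to these marks, gave the next counts. None of 30 genes of the LSD1 complexes had one within 20 kb (upper limit of the interval 11.4%, which includes the 1.9% of all protein-coding genes), and 17 of them had some LNCaP LSD1 peak. Of 12 protein kinase C genes, PRKCD and PRKCE had one (16.7%, 4.7 to 44.8), and 9 had some LNCaP LSD1 peak within 20 kb. Genes of that list were long, with a median interval of 118 kb. PRKCD was at 45.8 and 42.3 FPKM with a site 14.9 kb away (LSD1 141.48, H3T6ph 76.69), and PRKCE, with a site inside a long gene, at 1.63 FPKM in both libraries.

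Lipid synthesis genes had a dual site in 2 of 27 cases (7.41%, 2.06 to 23.4), ACACA among them. Prostate ion channels and transporters had one in 2 of 14 (14.3%, 4.01 to 39.9), SLC45A3 and the potassium channel KCNMA1 (25.2 and 20.8 FPKM, -0.27). No gene among 19 of steroid metabolism, 8 luminal markers or 2 neuroendocrine markers had one. The share of all protein-coding genes, 1.9%, lay below the intervals of the lipid and the channel lists, each of which rests on 2 genes. It lay within those of the lists without a site, whose upper limits were 16.8%, 32.4% and 65.8%. Some LNCaP LSD1 peak lay within 20 kb of 16 of the 27 lipid genes and 11 of the 14 channel genes, and of 4955 of all 11623. The median interval was 37.6 kb for the lipid list and 88.2 kb for the channel list, against 33.3 kb over all genes. The lists overlap, and SLC45A3 was also counted among the androgen-induced genes. The highest expressed genes with a dual site nearby included KLK2, ATP6V0E1 (320.7 and 267.7 FPKM), CYB5A (302.5 and 266.8 FPKM) and APP (285.2 and 239.9 FPKM).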

How the data were processed

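Peaks of LSD1 and H3T6ph in LNCaP and of LSD1 in VCaP were deposited as 1 list per sample on hg19, with a score per peak that the authors gave and whose scale is not stated (lowest 50.0 in the LNCaP LSD1 list). Expression was deposited as FPKM per RefSeq accession and library, with the authors' p-value and q-value, per the file headers. Alignment and calling tools, per the submitters' processing notes, include Cuffdiff 2.0.1, MACS2, TopHat2 2.0.4 and Bowtie2 2.0.0, with no role stated; peak settings, input control and read totals are not given in the sources read. Libraries were made with ThruPLEX-FD (ChIP) and TruSeq RNA v2 kits, per the labels' protocols; the latter does not mark strand.

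Of 11673, 4460 and 9854 peaks in the LNCaP LSD1, H3T6ph and VCaP LSD1 lists, 11654, 4429 and 9814 on chromosomes 1 to 22 and X were used. Overlaps needed 1 base. FPKM were summed over the accessions of a symbol (96.7% of 40253 accessions matched through GRCh38.p14), 42 genes marked as failed were left out, and protein-coding genes reaching 1 FPKM in at least 1 library were compared as log2(FPKM + 1). Intervals of 23.0% of these genes are shared with another gene, and reads of overlapping genes cannot be told apart. Shares carry 95% Wilson intervals and medians binomial order-statistic intervals. No test was run, since each group has 1 sample. The overlap, distance and gene summaries were tested on simulated data.

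The dual sites, the gene lists and the comparisons were chosen with earlier results of these data known. Named sites were the 10 highest by LSD1 score and by H3T6ph score, the 3 nearest to and 3 farthest from VCaP LSD1 and those within 1 kb of a gene end. Named genes were, among protein-coding genes within 20 kb at 5 FPKM or more, the 10 largest rises and falls and the 5 highest, genes with 3 sites, and genes of the lists with a site nearby. Other genes, such as those with 2 sites or called by the authors, were named after their values were seen. Some results that the rule takes in are not reported here. Python 3.11.15, pandas 2.3.3, statsmodels 0.14.6, SciPy 1.17.1 and matplotlib 3.10.9 were used. No peak sequence is printed, because no hg19 genome was used here. Alternatives covered the overlap, the distance to VCaP LSD1, stricter scores, the gene distance, the fold, the pseudocount and the filter.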

Additional observations from a re-analysis of the deposited data

How the results depend on the processing

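Each alternative changed 1 choice. Of 110 values recomputed, 92 stayed within the counting interval of the reported value (or within 1.5 times, for counts) and 18 moved. Among these values only the median log2 difference could change sign, and it stayed below 0 under every alternative. Keeping peaks above the median score of both LNCaP lists left 112 dual sites, of which 4.46% lay within 1 kb of a gene end, at the 76.3rd median percentile of LSD1 score (the score was the criterion), with 4 genes lower by 1.5-fold out of 73 and 3 androgen-induced genes nearby. Widening the gene end to 5 kb raised that share to 15.1%. Counting only genes that a site touches, or within 5 kb, gave 5 genes lower by 1.5-fold in both cases (of 146 and 162) and 4 androgen-induced genes in both. Within 100 kb, 1 of 500 genes passed 2-fold, DIO3, at 213 and 567 FPKM (log2 1.41). A pseudocount of 0.1 FPKM put 1 gene past 2-fold, SPOCK1 (-1.04), with 5 genes higher and 11 lower by 1.5-fold, and the 1.5-fold rule called 9 genes where the 2-fold rule called 0.

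Chosen after seeing the data were leaving out the 16 sites within 2 Mb of the widest empty stretch, which kept 8 genes lower by 1.5-fold of 215, and leaving out genes that share an interval, which gave 7 of 157, against 1.2% of all such genes. No paired analysis was possible because each group has 1 sample. No replicate could be left out, for the same reason. The depth of the peak lists is not known, so a place without a listed VCaP LSD1 or H3T6ph peak is not shown to lack it.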
